A study of Mus musculus with 12 samples.

Results

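The 39 genes described here encode nuclear subunits of respiratory complexes II to V, the electron carrier cytochrome c and 1 assembly factor, out of 53351 genes in the deposited table. They were taken by name. The list holds 4 genes of complex II, 9 of complex III, Cycs, 10 subunits of complex IV with the assembly factor gene Pet100, and 14 genes of complex V. It had been put together with short mRNAs of high polysome share in mind, so the level of these mRNAs in polysomes relative to total mRNA is given as a description. All 39 genes passed the filter on low values.

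Cells were wild-type primary neural progenitor cells from mouse cerebral cortex at E13.5, grown overnight with bFGF and EGF. They were treated for 2 h with 250 nM Torin1, which inhibits the kinase mTOR, or with the solvent DMSO. All cultures were then given cycloheximide at 100 ug/ml for 5 min, which holds ribosomes on their mRNAs. The groups were polysome mRNA of Torin1 cells, polysome mRNA of DMSO cells, total mRNA of Torin1 cells and total mRNA of DMSO cells, with 3 libraries called biological replicates in each. Polysome mRNA came from the gradient fractions with more than 3 ribosomes per mRNA, and total mRNA from the 10% of each lysate kept before the gradient.

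The respiratory chain of the inner mitochondrial membrane passes electrons to oxygen and stores the energy as a proton gradient, which complex V uses to make ATP. Complex II (succinate dehydrogenase) also belongs to the citric acid cycle, complex III passes electrons to cytochrome c, and complex IV (cytochrome c oxidase) hands them to oxygen. Complexes III to V combine proteins made on cytosolic ribosomes, such as those of the 39 genes, with a few core proteins made inside mitochondria. mTOR complex 1 controls the translation of ribosomal protein mRNAs, whose cap is followed by a run of pyrimidines (the TOP motif), and in other cell types it has been reported to control some nuclear-encoded mitochondrial mRNAs through the cap-binding repressors called 4E-BPs.

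Column totals of the deposited signal ran between 14341674 and 19201406. The deposited signal is not read counts, so the depth in reads is unknown. Values below are scaled to ppm of the signal of each library, folds are on the log2(ppm + 1) scale with their standard error (SE), and a gene is called where limma's p, adjusted over 20240 genes, is under 0.05. Whether the authors divided by transcript length is not stated, so levels are compared between libraries and not between genes. Many of these genes have processed pseudogene copies, so reads of a gene and its copies may have been split. The markers of progenitors summed to 3897 to 3999 ppm in total mRNA of Torin1 cells and 3432 to 3519 ppm in total mRNA of DMSO cells, and neuronal markers to 2522 to 2590 ppm in total mRNA of Torin1 cells and 2419 to 2452 ppm in that of DMSO cells. Blood markers summed to 1428 to 1650 ppm in total mRNA of Torin1 cells and 1301 to 1394 ppm in that of DMSO cells, and microglial markers to 2.79 to 4.44 ppm in Torin1 and 2.49 to 4.39 ppm in DMSO cells. Meningeal fibroblast markers summed to 32.8 to 39.1 ppm in total mRNA of Torin1 cells and 21.8 to 24.4 ppm in that of DMSO cells, and endothelial and mural markers to 14.5 to 16.4 ppm in Torin1 cells and 11.2 to 11.8 ppm in DMSO cells. In polysome mRNA meningeal fibroblast markers summed to 32.5 to 48.6 ppm in Torin1 cells and 23.0 to 28.1 ppm in DMSO cells, and endothelial and mural markers to 20.0 to 23.9 ppm in Torin1 cells and 14.5 to 18.7 ppm in DMSO cells, while the other 4 lists overlapped between the treatments there. Fewer cells of a type and less RNA per cell cannot be told apart in such libraries, and the part of these cells in the results below was not tested.

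Several libraries stood apart for the 39 genes. In polysome mRNA of DMSO cells, replicate 2 was the lowest of the 3 libraries for 33 of the 39 genes, against 37.9% of expressed genes, and replicate 3 the highest for 30, against 33.4%. In polysome mRNA of Torin1 cells, replicate 2 was the lowest for 34 of the 39 genes, against 29.5% of expressed genes, and replicate 3 was the highest for 25, against 37.5%. The deviation of polysome Torin1 replicate 3 from its group and that of polysome DMSO replicate 2 from its group ran opposite ways across the genes, with medians of 0.32 and -0.26 on the log2 scale. Uqcrb, Cycs and Cox7c mRNAs had large deviations in both libraries, while Sdha mRNA had small ones. Atp5a1 and Atp5b mRNAs deviated by 0.04 and -0.02 in polysome DMSO replicate 2. In polysome Torin1 replicate 3 they deviated by -0.18 and -0.19, opposite in sign to the median. Over the 39 genes Spearman's rho of the deviations was -0.83 and Pearson's r -0.83, as a description, since the genes share the libraries and their scaling and these libraries were picked after their values were seen. With scaling to the column total alone polysome DMSO replicate 2 was the lowest of 3 for 22 genes, polysome Torin1 replicate 2 for 18, and polysome Torin1 replicate 3 and polysome DMSO replicate 3 were each the highest for 24. In total mRNA, Torin1 replicate 2 was the lowest of 3 for 22 of the 39 genes, against 37.5% of expressed genes, and for 32 with scaling to the column total alone. That library held 2090 ppm of the small nuclear RNA Rn7sk, against 40.9 and 81.4 ppm in the other total libraries of Torin1 cells and 38.6 to 183 ppm in those of DMSO cells. The part of Rn7sk in the results was not tested, and without that library 0 of the 39 genes were called in total mRNA, as with it.

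**Figure D1:**
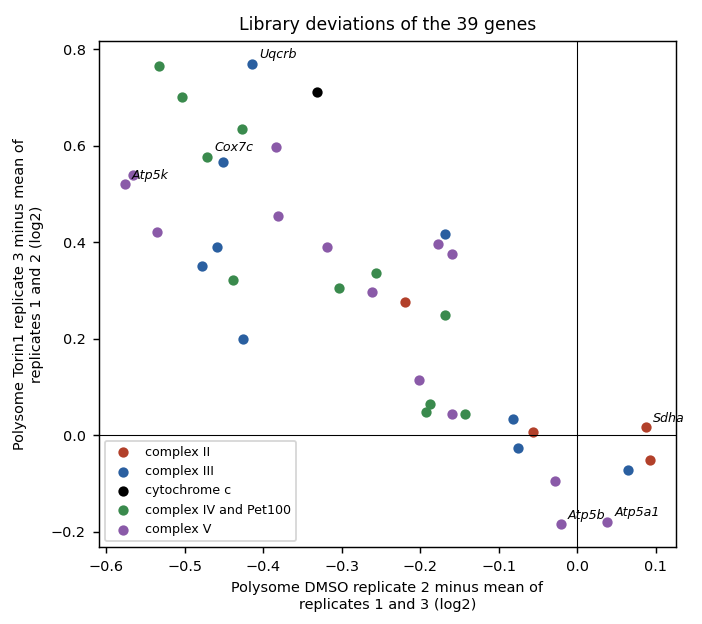
Each point is 1 of the 39 genes, coloured by complex; the axes give the log2 deviation of polysome DMSO replicate 2 from the mean of replicates 1 and 3, and of polysome Torin1 replicate 3 from the mean of replicates 1 and 2. Most points lie at upper left, with a negative deviation on the horizontal axis (median -0.26) and a positive one on the vertical axis (median 0.32), and Sdha, Atp5a1 and Atp5b lie near 0 on the horizontal axis.

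Nearly all of the 39 mRNAs made up a larger share of the polysome libraries than of the total libraries, under both treatments. Together they took 3.29%, 3.1% and 3.48% of the signal in the 3 polysome libraries of Torin1 cells, and 1.72%, 1.57% and 1.72% in the total libraries of Torin1 cells. In DMSO cells they took 3.32%, 3.07% and 3.41% of the polysome signal and 1.78%, 1.76% and 1.76% of the total signal. limma called 39 of 39 genes higher in polysome than in total mRNA in Torin1 cells, where 20% of all genes tested were called higher and 20.1% lower, and 38 of 39 in DMSO cells, where 20.8% were called higher and 20.4% lower. The median log2 fold over the 39 genes was 1.01 in Torin1 cells and 1.15 in DMSO cells, which is 2.01-fold in Torin1 and 2.22-fold in DMSO cells, and 20 genes lay over 2-fold in Torin1 cells and 26 in DMSO cells. Over all genes tested the median log2 fold was -0.01 in either treatment. The 39 genes were listed with a high polysome share in mind, so these calls and medians describe the list and do not test it. With scaling to the column total alone the medians of the 39 genes were 0.92 in Torin1 cells and 0.77 in DMSO cells, and the counts called higher were 36 in Torin1 cells and 35 in DMSO cells. The calls lost under that scaling were those on Sdha, Uqcrfs1 and Atp5a1 in Torin1 cells (adjusted p = 0.0852, 0.126 and 0.0976 with limma) and on Atp5b, Uqcrfs1 and Atp5a1 in DMSO cells (0.0639, 0.423 and 0.741), where Sdha was called lower (-0.39, adjusted p = 0.009). These comparisons share their total or polysome libraries with those of Torin1 against DMSO below.

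**Figure D2:**
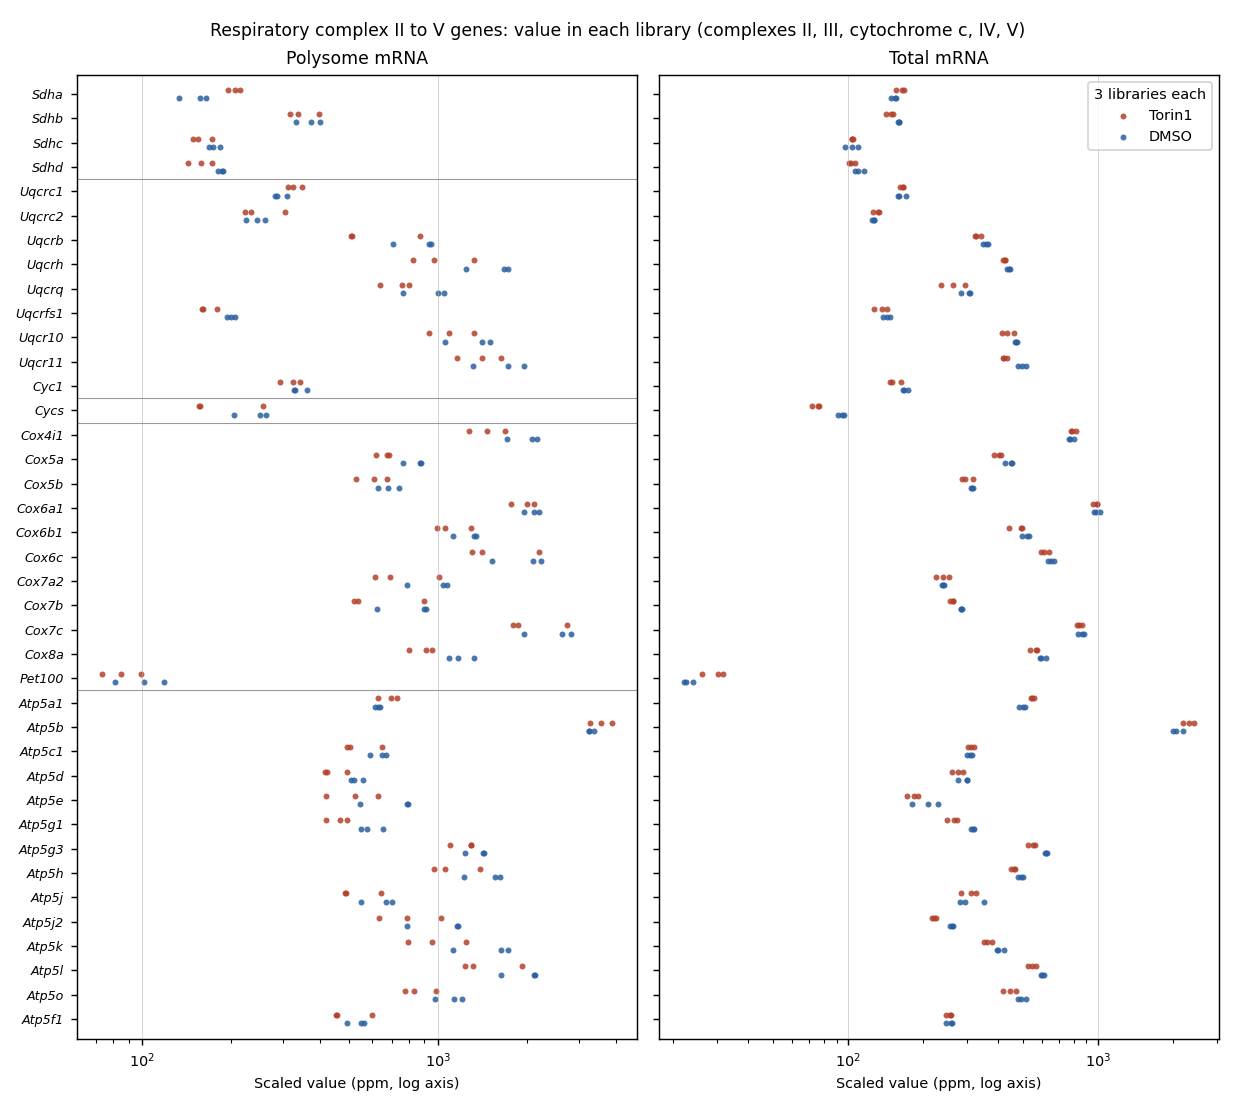
Scaled value in ppm (log axes) of each of the 39 genes in every library, with polysome mRNA on the left and total mRNA on the right; each point is 1 library, red for Torin1 and blue for DMSO, and lines separate complexes II, III, cytochrome c, IV and V. The axes of the panels cover different ranges. The total libraries of a gene lie close together, while the polysome libraries spread more for genes such as Uqcrb (509 to 873 ppm in Torin1 cells and 705 to 949 ppm in DMSO cells).

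Complex II is encoded by Sdha (the flavoprotein that binds succinate), Sdhb (the iron-sulfur subunit), and Sdhc and Sdhd (the membrane anchors). Its median fold of polysome over total mRNA was 1.52 in Torin1 cells and 1.68 in DMSO cells, and its 4 genes differed among themselves. Sdhb mRNA was at 337, 316 and 395 ppm in polysomes of Torin1 cells against 152, 142 and 148 ppm in their total mRNA, and at 372, 331 and 399 ppm in polysomes of DMSO cells against 159, 159.7 and 158 ppm in their total mRNA. The polysome and total libraries of Sdhb did not overlap, and its log2 folds were 1.24 in Torin1 cells and 1.20 in DMSO cells. Sdha mRNA was at 195, 215 and 207 ppm in polysomes of Torin1 cells against 155, 165 and 168 ppm in their total mRNA, and at 164, 158 and 134 ppm in polysomes of DMSO cells against 148, 156 and 154 ppm in their total mRNA. Sdha was the 1 gene of the 39 not called in DMSO cells, where its polysome and total libraries overlapped and its log2 fold was -0.01 ± 0.08 (SE).

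Complex III comprises the core proteins Uqcrc1 and Uqcrc2, the electron-carrying Rieske iron-sulfur protein (Uqcrfs1) and cytochrome c1 (Cyc1), and small subunits such as the hinge protein Uqcrh. The small subunits had the largest folds of polysome over total mRNA within the complex in DMSO cells. In Torin1 cells the same held except for Uqcrb, whose log2 fold of 0.89 lay below those of Cyc1 (1.05), Uqcrc1 (0.99) and Uqcrc2 (0.94). Uqcr11 mRNA, for a small subunit, was at 1410, 1164 and 1635 ppm in polysomes of Torin1 cells against 416, 420.2 and 432 ppm in their total mRNA, a log2 fold of 1.71, and at 1728, 1319 and 1955 ppm in polysomes of DMSO cells against 498, 514 and 481 ppm, a log2 fold of 1.72. Uqcrq, for another small subunit, had log2 folds of 1.46 in Torin1 cells and 1.63 in DMSO cells. Uqcrfs1 had the smallest folds of the complex, with log2 folds of 0.29 in Torin1 cells and 0.48 in DMSO cells. Cycs, the cytochrome c gene, was at 157, 155 and 256 ppm in polysomes of Torin1 cells against 76.3, 75.9 and 72.1 ppm in their total mRNA, a log2 fold of 1.29. In DMSO cells Cycs was at 251, 204 and 262 ppm in polysomes and 90.9, 96.2 and 94.8 ppm in total mRNA, a log2 fold of 1.33.

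For complex IV the median fold of polysome over total mRNA was 2.32 in Torin1 cells and 2.53 in DMSO cells. Cox7a2, a small structural subunit, was at 689, 612 and 1009 ppm in polysomes of Torin1 cells against 225, 254 and 239 ppm in their total mRNA, a log2 fold of 1.65. Its 3 libraries in DMSO cells were at 1074, 786 and 1039 ppm in polysomes and 242, 239 and 239.5 ppm in total mRNA, a log2 fold of 1.99. Pet100, whose product helps to assemble complex IV, was at 85.1, 73.3 and 99 ppm in polysomes of Torin1 cells against 31.5, 30.3 and 26.1 ppm in their total mRNA, and at 102, 80.9 and 119 ppm in polysomes of DMSO cells against 22.5, 22.2 and 24.1 ppm in their total mRNA. Its log2 folds were 1.51 in Torin1 cells and 2.07 in DMSO cells, and the libraries of the 2 fractions did not overlap. Cox7c, a small structural subunit, had 1863, 1789 and 2725 ppm in polysomes of Torin1 cells against 861, 825 and 839 ppm in their total mRNA, with a log2 fold of 1.31 there and 1.51 in DMSO cells. The smallest folds of complex IV were those of Cox8a in Torin1 cells (0.67) and of Cox5a in DMSO cells (0.92).

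The genes of complex V ranged widely in the same comparison. Atp5a1 and Atp5b, for the alpha and beta subunits of the head where ATP is made, had log2 folds of 0.32 and 0.63 in Torin1 cells and 0.33 and 0.66 in DMSO cells. Atp5b mRNA was at 3867, 3571 and 3268 ppm in polysomes of Torin1 cells against 2422, 2181 and 2320 ppm in their total mRNA, and at 3234, 3252 and 3364 ppm in polysomes of DMSO cells against 2195, 1990 and 2057 ppm in their total mRNA. The fractions of Atp5b did not overlap. Atp5j2, a subunit of the membrane part, was at 784, 635 and 1025 ppm in polysomes of Torin1 cells against 221, 216 and 226 ppm in their total mRNA, a log2 fold of 1.85. In DMSO cells Atp5j2 was at 1165, 789 and 1173 ppm in polysomes and 262, 261 and 257 ppm in total mRNA, a log2 fold of 1.97. Atp5e, for the small epsilon subunit of the central stalk, had log2 folds of 1.50 in Torin1 cells and 1.76 in DMSO cells, and Atp5k, for the membrane subunit e, had 1.44 in Torin1 cells and 1.86 in DMSO cells. Over the 39 genes, Spearman's rho between the folds of the 2 treatments was 0.926, a description of genes that share libraries and scaling.

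**Figure D3:**
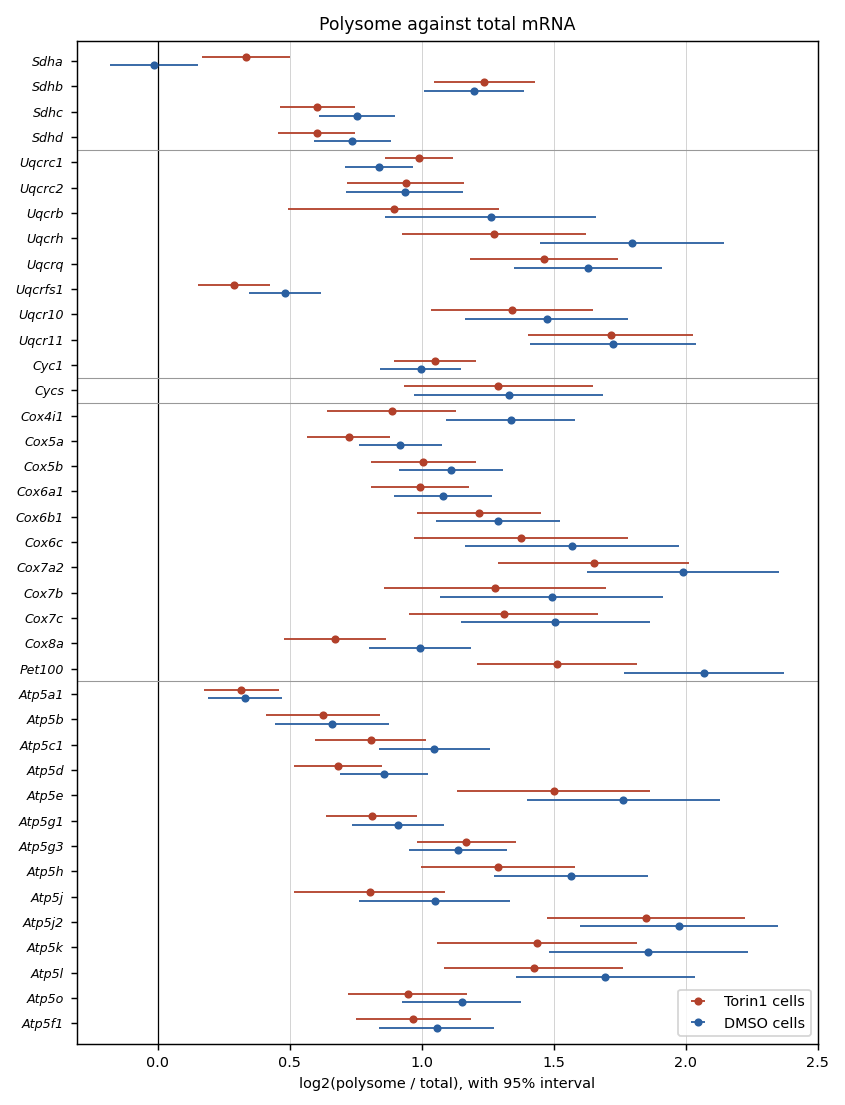
Log2 fold of polysome over total mRNA for each of the 39 genes with its 95% interval, in Torin1 cells (red) and in DMSO cells (blue), from limma over 12 libraries. Every point but that of Sdha in DMSO cells (-0.01) lies right of 0, and Sdha, Atp5a1 and Uqcrfs1 lie furthest left in both treatments.

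The other gene lists gave the following values in that comparison. Of 36 complex I subunit genes, for the respiratory complex that oxidises NADH, limma called 36 higher in polysome mRNA in Torin1 cells (median log2 fold 1.17) and 36 in DMSO cells (median 1.29). Of 79 cytosolic ribosomal protein genes it called 4 higher and 40 lower in Torin1 cells (median log2 fold -0.35), and 75 higher and 1 lower in DMSO cells (median 0.92). Of 37 assembly factor genes of complexes II to V, 23 were called higher and 2 lower in Torin1 cells, and 24 higher and 3 lower in DMSO cells. Of 12 genes for transcriptional regulators of respiratory genes, 4 were higher and 7 lower in Torin1 cells, and 3 higher and 6 lower in DMSO cells. The 6 mitochondrially encoded subunits of complexes III to V are translated on mitochondrial ribosomes, and limma called 4 of them lower and 0 higher in polysome mRNA under either treatment. mt-Atp8, for a membrane subunit of complex V, had log2 folds of -3.74 in Torin1 cells and -3.98 in DMSO cells; it overlaps mt-Atp6, so reads may have been split between them. mt-Cytb, the cytochrome b gene, had -0.15 in Torin1 cells and -0.20 in DMSO cells, which were not called.

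The comparison of Torin1 with DMSO in total mRNA asks whether these mRNAs changed, relative to other mRNAs, within 2 h of mTOR inhibition. limma called 0 of the 39 genes, where 3.6% of all genes tested were called higher and 4.36% lower. Its unadjusted p was under 0.05 for 2 of the 39 genes and for 4452 of the 20240 genes tested. The median log2 fold was -0.10, or 0.936-fold, with 9 genes above 0, and the 95% interval of every one of the 39 genes lay within 2-fold of no change, between -0.68 and 0.64. For 18 genes all Torin1 libraries lay below all DMSO libraries and for 2 above them, where 17.9% and 15.5% of all genes tested did so. Over all genes tested the median was -0.0009. limma's SE of a gene drew on all 12 libraries, so the spread of the polysome libraries entered these p-values. When only the 6 total libraries were fitted, 2 of the 39 genes were called higher and 8 lower. The share of all genes called in that fit is not given here, so these counts may not be particular to the 39 genes.

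The largest differences in total mRNA were those of Pet100 and Cycs. Pet100, with the values given above, had all Torin1 libraries above all DMSO libraries and a log2 fold of 0.34 ± 0.14 (limma, adjusted p = 0.176). Cycs was at 76.3, 75.9 and 72.1 ppm in Torin1 cells and 90.9, 96.2 and 94.8 ppm in DMSO cells, again without overlap, with a log2 fold of -0.33 ± 0.16 (limma, adjusted p = 0.276). Atp5g1, 1 of 3 genes for the membrane ring subunit c of complex V, had the lowest adjusted p in the main fit of 12 libraries. It was at 248, 265 and 272 ppm in Torin1 cells and 309, 315 and 318 ppm in DMSO cells, a log2 fold of -0.26 ± 0.08 (limma, adjusted p = 0.0663). Under the alternatives tried, limma's adjusted p ran from 0.0419 to 0.357 for Pet100. It ran from 0.00544 to 0.452 for Cycs and from 0.0104 to 0.194 for Atp5g1. By complex, the median folds in total mRNA were 0.97 for complex II, 0.926 for III, 0.952 for IV with Pet100 and 0.923 for V.

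The comparison of Torin1 with DMSO in polysome mRNA asks whether the level of each mRNA, relative to other mRNAs in polysomes, differed between treatments. The unadjusted p of limma was under 0.05 for 20 of the 39 genes and for 4868 of the 20240 genes tested. limma called 1 of the 39 genes higher and 7 lower with Torin1, where it called 4.43% of all genes tested higher and 5.73% lower. The 1 that rose was Sdha of complex II, and those that fell were Uqcrh and Uqcrfs1 of complex III, Cox4i1, Cox5a and Cox8a of complex IV, and Atp5g1 and Atp5o of complex V. The median log2 fold of the 39 genes was -0.25 (0.842-fold) against 0 over all genes tested. Scaled to the column total alone it was 0.01 against 0.13, so that the difference between both medians was -0.25 with the first scaling and -0.13 with the second. The share of the 39 genes in the polysome signal, given above, overlapped between the treatments, while that of the ribosomal protein genes was 10.3%, 9.61% and 11.4% in Torin1 cells and 19.7%, 17.5% and 20% in DMSO cells. Among all genes called in polysome mRNA 43.6% were higher, against 89.8% where the column total was the only scaling.

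Sdha is located at chr13:74322255-74350240 (GRCm38.p6, the assembly of mm10). It had 195, 215 and 207 ppm in polysomes of Torin1 cells and 164, 158 and 134 ppm in those of DMSO cells, so that every Torin1 library lay above every DMSO library. Its log2 fold was 0.44 ± 0.08 (limma, adjusted p = 0.00395), and it was called without each of the 6 polysome libraries in turn. Its total mRNA had a log2 fold of 0.09 ± 0.08, which was not called. The other genes of complex II had log2 folds of -0.07 (Sdhb), -0.14 (Sdhc) and -0.23 (Sdhd) in polysome mRNA, with adjusted p-values from limma of at least 0.0513, and all 3 lay above 0 with scaling to the column total alone (0.02 to 0.18).

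Uqcrh lies at chr4:116066965-116075070 and encodes the acidic hinge protein next to cytochrome c1. Its mRNA was at 969.8, 826 and 1326 ppm in polysomes of Torin1 cells and 1678, 1243 and 1722 ppm in those of DMSO cells. Torin1 replicate 3 lay within the DMSO range and the other Torin1 libraries below it. Its log2 fold was -0.59 ± 0.16 (limma, adjusted p = 0.0392), the largest fall called among the 39 genes. Uqcrfs1, at chr13:30540312-30545316, was at 179, 159 and 160.3 ppm in polysomes of Torin1 cells and 194, 206 and 200.1 ppm in those of DMSO cells, without overlap, and fell by a log2 fold of 0.27 (limma, adjusted p = 0.0197). Uqcrb, a small subunit, had 514, 509 and 873 ppm in polysomes of Torin1 cells and 930.5, 705 and 949 ppm in those of DMSO cells, a log2 fold of -0.48 ± 0.18 that did not pass (limma, adjusted p = 0.127). The core proteins Uqcrc1 and Uqcrc2 had log2 folds of 0.16 and 0.05, and neither passed. Cycs had -0.37 ± 0.16 (limma, adjusted p = 0.196), with Torin1 replicate 3 at 256 ppm inside the DMSO range of 204 to 262 ppm.

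In complex IV, Cox4i1 and Cox5a encode regulatory and structural subunits around the catalytic core, and Cox8a encodes one of the smallest subunits. Cox4i1 (chr8:120668225-120674209) was at 1469, 1277 and 1691 ppm in polysomes of Torin1 cells and 2078, 1714 and 2156 ppm in those of DMSO cells, a log2 fold of -0.42 ± 0.11 (limma, adjusted p = 0.0337). Cox5a (chr9:57517328-57532427) was at 686, 616 and 672 ppm in polysomes of Torin1 cells and 880.3, 765 and 869 ppm in those of DMSO cells, a log2 fold of -0.35 ± 0.07 (limma, adjusted p = 0.0104). Cox8a (chr19:7215158-7217616) was at 956, 799 and 913 ppm in polysomes of Torin1 cells and 1168, 1092 and 1324 ppm in those of DMSO cells, a log2 fold of -0.42 ± 0.09 (limma, adjusted p = 0.0107). For each of these 3 genes all Torin1 libraries lay below all DMSO libraries. The other 8 genes of complex IV, Pet100 included, were not called, and all 11 had a log2 fold below 0, between -0.42 for Cox8a and -0.09 for Cox6a1. Scaled to the column total only, 5 of the 11, Cox5b, Cox6a1, Cox6b1, Cox7c and Pet100, had log2 folds above 0, between 0.03 and 0.16.

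In complex V, Atp5g1 (chr11:96072793-96075694) was at 493, 419 and 469 ppm in polysomes of Torin1 cells and 577, 549 and 651 ppm in those of DMSO cells, without overlap, a log2 fold of -0.36 ± 0.08 (limma, adjusted p = 0.0133). Atp5o (chr16:91925223-91931630), for the subunit of the peripheral stalk that confers sensitivity to oligomycin, was at 829, 772 and 982 ppm in polysomes of Torin1 cells and 1132, 975 and 1208 ppm in those of DMSO cells, a log2 fold of -0.36 ± 0.10 (adjusted p = 0.0473 in limma). For Atp5o, Torin1 replicate 3 lay just inside the DMSO range. Atp5k had the lowest log2 fold of the 39 genes, -0.59 ± 0.17, which did not pass (limma, adjusted p = 0.0533). Its libraries were at 956, 789.7 and 1247 ppm in polysomes of Torin1 cells and 1637, 1128 and 1729 ppm in those of DMSO cells, with Torin1 replicate 3 inside the DMSO range. Of the other members of complex V, the alpha and beta subunit genes Atp5a1 and Atp5b had log2 folds of 0.12 each, which did not pass, and the median over the 14 genes was 0.807-fold.

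Over the 39 genes, polysome Torin1 replicate 1 lay below all DMSO libraries for 27 genes, replicate 2 for 34 and replicate 3 for 9, and each lay above all of them for 4. All 3 Torin1 libraries lay below all DMSO libraries for 7 genes and above them for 2, where 12.7% and 11.6% of all genes tested did so. Of the 39 genes, 4, 10 and 2 were called lower without polysome DMSO replicates 1, 2 and 3. Without polysome Torin1 replicates 1, 2 and 3 the counts called lower were 7, 3 and 20. The count called higher was 2 without Torin1 replicate 3 and otherwise 1. Shares of all genes called in these fits are not given here, so whether the counts are particular to the 39 genes is not shown. The calls on Uqcrh, Cox4i1 and Atp5o were each lost without polysome DMSO replicate 1 (adjusted p = 0.131, 0.114 and 0.136 with limma), DMSO replicate 3 (0.141, 0.128 and 0.169), Torin1 replicate 1 (0.0828, 0.0572 and 0.0915) and Torin1 replicate 2 (0.122, 0.102 and 0.143), and that on Atp5g1 without DMSO replicate 3 (0.0581). The call on Uqcrfs1 was lost without DMSO replicate 2 (0.0635), DMSO replicate 3 (0.0655) or Torin1 replicate 2 (0.0665), those on Sdha, Cox5a and Cox8a held without each library, and Atp5k was called without DMSO replicate 2 (0.0113) or Torin1 replicate 3 (0.011). With scaling to the column total alone Sdha, Uqcrc1, Uqcrc2, Atp5a1 and Atp5b were called higher and 0 genes lower. Of all genes tested, that scaling called 2787 higher and 317 lower, so calls of a rise were not particular to the 39 genes. The 7 genes named as lower then had log2 folds between -0.33 (Uqcrh) and -0.01 (Uqcrfs1). A fit of the 6 polysome libraries alone called 0 of the 39 genes and 460 genes in all. The fit of 12 libraries drew its spread from the total libraries as well.

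**Figure D4:**
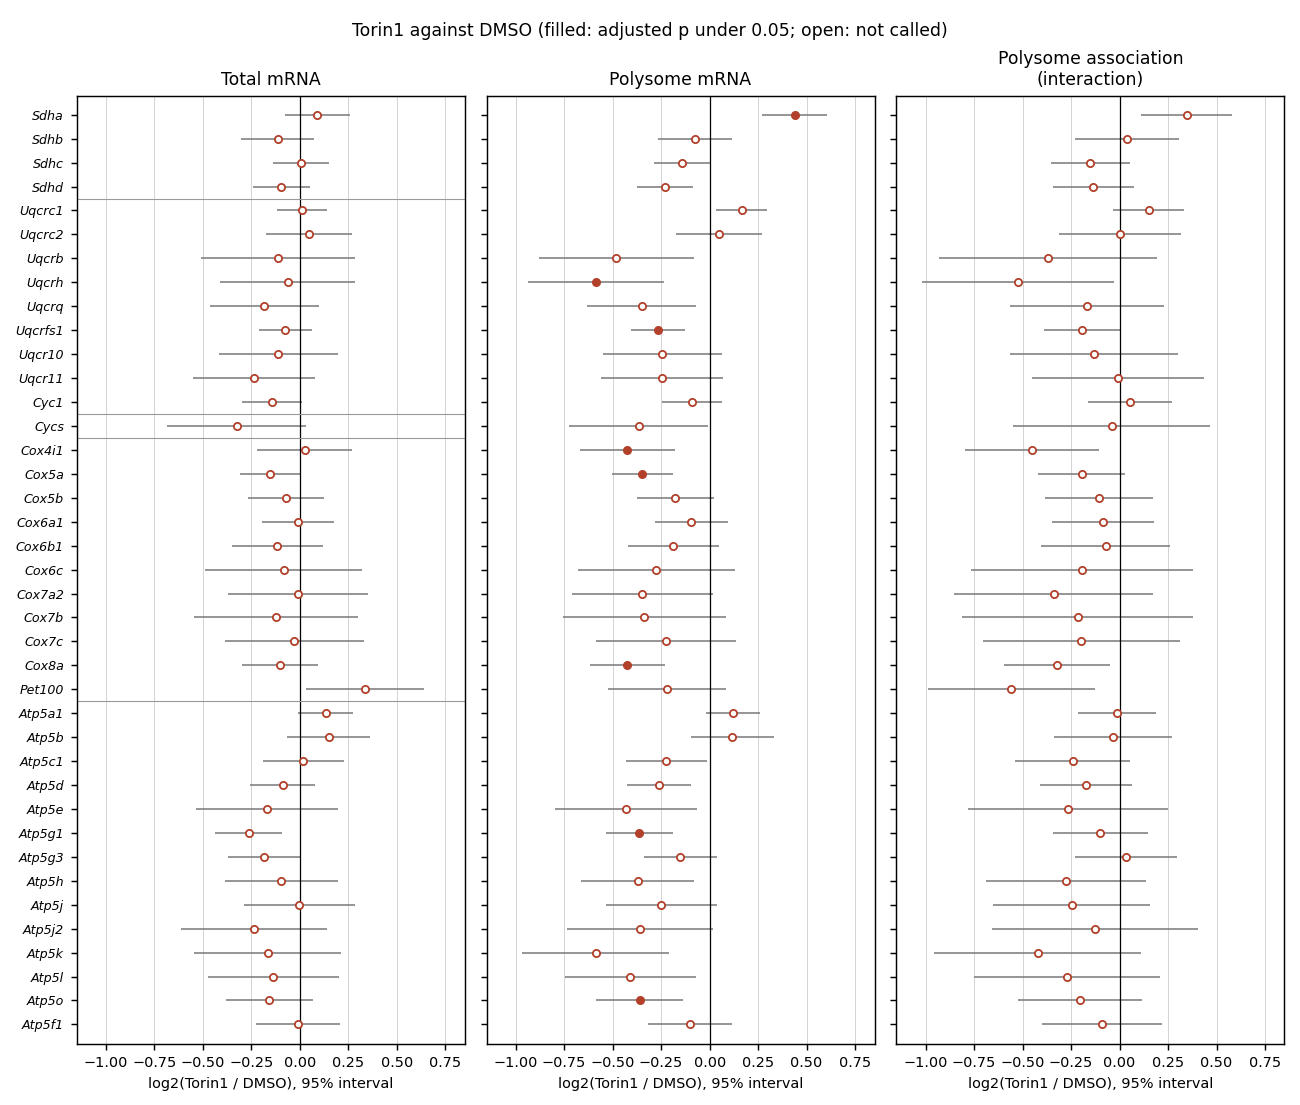
Log2 fold of Torin1 against DMSO for each of the 39 genes with its 95% interval from limma, in total mRNA, in polysome mRNA and as the change in polysome association (the polysome fold minus the total fold); filled points passed an adjusted p of 0.05. The only filled points are Sdha (0.44) and 7 genes between -0.59 and -0.27 in the polysome panel.

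The change in polysome association is the log2 fold of Torin1 against DMSO in polysome mRNA minus that in total mRNA. It asks whether polysome levels changed beyond total levels, both relative to other mRNAs. limma called 0 of the 39 genes, with a lowest adjusted p of 0.463. Of all genes tested 0.00494% were called higher and 0.623% lower. The unadjusted p of limma was under 0.05 for 5 of the 39 genes and for 1173 of the 20240 genes tested. The median was -0.17 against 0.01 over all genes tested. Scaled to the column total alone it was 0.12 against 0.21, so the sign of the median depended on the scaling. The difference between both medians was -0.17 with the first scaling and -0.09 with the second. Of the 39 genes, 33 lay below 0 with the first scaling and 32 above 0 with the second. For 38 of the 39 genes the 95% interval lay within 2-fold of no change, and the lowest bound was -1.02, for Uqcrh. Pet100 had the largest value, -0.56 ± 0.20 (limma, adjusted p = 0.615), followed by Uqcrh with -0.52 ± 0.22 (limma, adjusted p = 0.826), and Sdha had 0.35 ± 0.11 (limma, adjusted p = 0.463). The values of Pet100 combined a total mRNA that was higher with Torin1 and a polysome mRNA that was lower, and neither difference passed.

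Complex I subunits and ribosomal protein genes were measured in the same fit. Of 36 complex I genes limma called 0 in the change in polysome association, 4 of them with an unadjusted p under 0.05 and the median at -0.08, and 2 lower in polysome mRNA, where the median was -0.25. The 2 were Ndufb10 (-0.42, limma, adjusted p = 0.0253) and Ndufb7 (-0.40, limma, adjusted p = 0.0334), and the call on Ndufb10 was lost without polysome DMSO replicate 1 or 3 or Torin1 replicate 2 (adjusted p between 0.0749 and 0.103), and that on Ndufb7 without any of these or Torin1 replicate 1 (0.0504 to 0.129). Neither was called with scaling to the column total alone (Ndufb10 at -0.17, adjusted p = 0.135, and Ndufb7 at -0.15, adjusted p = 0.309, with limma) or when only the polysome libraries were fitted (0.186 and 0.161). Of 79 ribosomal protein genes 63 were lower in polysome association, with a median of -1.24, and 78 in polysome mRNA. Rps27, a small ribosomal subunit protein, was at 1905, 1524 and 2384 ppm in polysomes of Torin1 cells and 7494, 5137 and 7736 ppm in those of DMSO cells, while its total mRNA was at 3206, 3195 and 3258 ppm in Torin1 cells and 3169, 2962 and 2973 ppm in DMSO cells. Its change in polysome association was -1.89 ± 0.26 (limma, adjusted p = 0.0048).

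Further subunits and isoforms of complexes III to V, beyond the 39 genes, numbered 15, of which 12 passed the filter on low values. limma called 2 of the 12 lower and 0 higher in polysome association, and the same count in polysome mRNA, and 0 in total mRNA. Cox7a2l (chr17:83501917-83514333), whose product joins complexes III and IV into supercomplexes, was at 88.4, 72 and 95.2 ppm in polysomes of Torin1 cells and 181, 159 and 195 ppm in those of DMSO cells. Its total mRNA was at 137, 127 and 126 ppm in Torin1 cells and 115, 111 and 114 ppm in DMSO cells, so the order of the treatments was opposite in the 2 fractions and the libraries did not overlap in either, although the log2 fold in total mRNA, 0.19 ± 0.10, was not called. Its change in polysome association was -1.25 ± 0.14 (limma, adjusted p = 0.00143).

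Atp5g2 (chr15:102662868-102671047) encodes the same subunit c of complex V as Atp5g1 and Atp5g3. It was at 664, 590.2 and 639.7 ppm in polysomes of Torin1 cells and 805, 842 and 898 ppm in those of DMSO cells, and its total mRNA at 542, 540.5 and 551 ppm in Torin1 cells and 502, 485 and 486 ppm in DMSO cells. Neither fraction overlapped between treatments, and the change in polysome association was -0.57 ± 0.09 (limma, adjusted p = 0.0136), which was not called with scaling to the column total alone (-0.29, adjusted p = 0.203). Its fall in polysome mRNA, a log2 fold of -0.43 (limma, adjusted p = 0.00191), was not called with that scaling (-0.17, adjusted p = 0.166) or in a fit of the polysome libraries alone (adjusted p = 0.0722). The same value was -0.10 ± 0.11 for Atp5g1 and 0.03 ± 0.12 for Atp5g3, neither of which passed. The differences between these 3 genes were not tested. Without total DMSO replicate 2 or 3, or any 1 of the total Torin1 libraries, the call on Atp5g2 was lost, with adjusted p-values between 0.0503 and 0.0626 from limma. That call on the change in polysome association was also lost with the replicate number as a block.

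**Figure D5:**
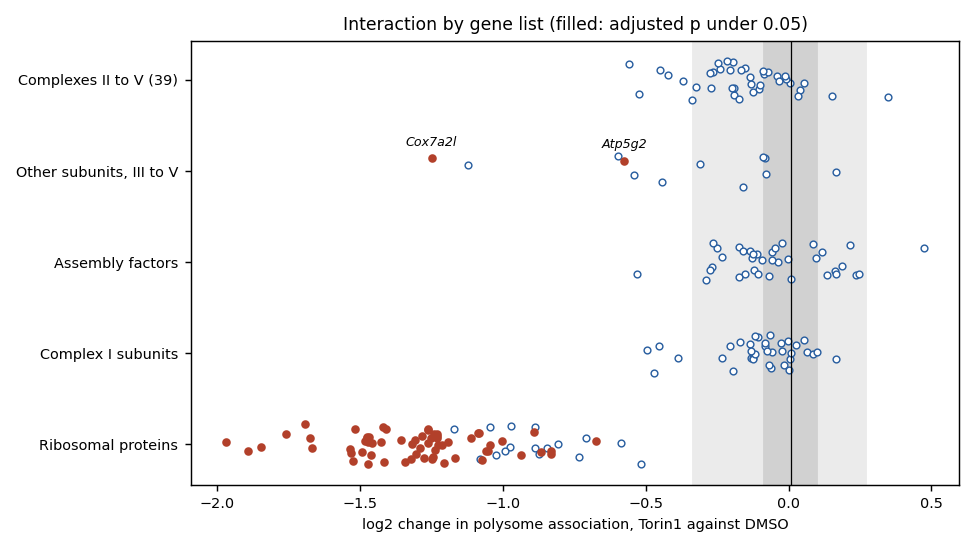
Change in polysome association with Torin1 (log2, horizontal axis) for each tested gene of 5 lists, 1 point per gene, filled where the adjusted p was under 0.05; vertical position within a list has no meaning. Dark and light bands hold the central 50% (-0.09 to 0.10) and 90% (-0.34 to 0.27) of expressed genes, and the 39 genes of complexes II to V have no filled point while 63 of 79 ribosomal protein genes do.

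Sequences at the start of transcription are shown for those nuclear subunit genes of complexes II to V called in polysome mRNA or polysome association whose start in the RefSeq promoter table (GRCm38.p6) lies at the end of the gene's span, with Rps27 as a TOP mRNA beside them. Capitals mark the first 5 transcribed bases, after 10 bases of upstream sequence, all read 5′ to 3′ on the gene's strand.
Sdha (chr13:74350221-74350250, minus strand): gcgcaagcgcAGTCTgtcgctggggcttgc
Uqcrh (chr4:116075051-116075080, minus strand): cttccggccaGGTCGccggatatccgtcga
Uqcrfs1 (chr13:30545297-30545326, minus strand): cctcccgctcCTCTTcgggccgtcgttcga
Cox8a (chr19:7217597-7217626, minus strand): aaatacttccGGCTCgggcgtccggcaact
Atp5o (chr16:91931611-91931640, minus strand): agcgatcacgCTGGCgcgcgcgcgtgcgct
Cox7a2l (chr17:83514314-83514343, minus strand): ggggaagccgGGTCCttttctagggcggtc
Atp5g2 (chr15:102671028-102671057, minus strand): gcgcccccgcCCCTCtctgtcttctctgcc
Rps27 (chr3:90213629-90213658, minus strand): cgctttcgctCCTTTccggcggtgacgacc

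Of the genes shown, Uqcrfs1, Atp5g2 and Rps27 have a C followed by C or T over the first 5 bases. Starts were found in the table for 31 of the 39 genes. A start of that form was present in 2 of the 31 genes (6.45%), Uqcrfs1 and, at 1 of its 2 listed starts, Atp5d, against 14 of 58 ribosomal protein genes found there (24.1%) and 3.01% of all 27025 genes of the table. Cox7a2l, with the larger of the 2 changes in polysome association called among subunits of complexes III to V, has no such run at the listed start. There, GG comes before a run of C and T. Most ribosomal protein genes found in the table lack the run at their listed starts too. Its absence there therefore does not show that an mRNA lacks the TOP motif. A listed start need not be the one used in these cells.

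Transcriptional regulators of respiratory genes were followed in the same libraries. Total mRNA of Nrf1, a transcription factor of respiratory genes, was at 45.4, 38.1 and 38 ppm in Torin1 cells and 53.6, 56.6 and 55 ppm in DMSO cells, without overlap, and fell by a log2 fold of 0.44 (limma, adjusted p = 0.00536). Of the 12 transcriptional regulators 0 rose and 3 fell in total mRNA. Besides Nrf1 these were Gabpb1, a subunit of the factor NRF2 (-0.25, limma, adjusted p = 0.0382), and the PGC-1-related coactivator gene Pprc1, at 12.8, 11.3 and 11.9 ppm in Torin1 cells and 19.9, 17.5 and 19.3 ppm in DMSO cells (-0.62, limma, adjusted p = 0.0294). In polysome mRNA 1 of the 12 rose, the coactivator gene Ppargc1a (0.52 at 2.77 to 3.82 ppm in Torin1 cells and 1.93 to 2.24 ppm in DMSO cells; limma, adjusted p = 0.0217), and 2 fell, Pprc1 (-0.53, limma, adjusted p = 0.0453) and the nuclear receptor gene Esrra (-0.50, limma, adjusted p = 0.00171). The call on Ppargc1a was lost without polysome DMSO replicate 2 or 3 (adjusted p = 0.0582 and 0.0814 with limma), and that on Pprc1 without each polysome library but Torin1 replicate 2 (0.0739 to 0.135). Under the column-total scaling neither Pprc1 (-0.30, adjusted p = 0.309) nor Esrra (-0.25, adjusted p = 0.134) was called in polysome mRNA, and a fit of the polysome libraries alone called neither Ppargc1a nor Pprc1 (adjusted p = 0.123 and 0.22 with limma). In total mRNA the call on Pprc1 was lost without any 1 library (0.0591 to 0.104) and that on Gabpb1 without each but DMSO replicate 3 (0.0804 to 0.146). Both calls were lost with scaling to the column total alone (Pprc1 at 0.0619 and Gabpb1 at 0.101). The call on Nrf1 in total mRNA held without each library. It was lost with the replicate number as a block (limma, adjusted p = 0.0666).

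Of 37 assembly factor genes, limma called 1 higher and 1 lower in total mRNA, 1 higher and 2 lower in polysome mRNA and 0 in polysome association, with 3 at an unadjusted p under 0.05 there. Lrpprc, which stabilises mitochondrial mRNAs and is needed for complex IV, was at 25.1, 28 and 27.1 ppm in polysomes of Torin1 cells and 16.4, 15.6 and 14.2 ppm in those of DMSO cells, a log2 fold of 0.76 ± 0.07 (limma, adjusted p = 0.000115). Its total mRNA was at 34.1, 30.8 and 34.7 ppm in Torin1 cells and 26.9, 26.3 and 28 ppm in DMSO cells, a log2 fold of 0.28 ± 0.07 (limma, adjusted p = 0.0389). Neither fraction overlapped between the treatments. With the replicate number as a block both calls on Lrpprc were lost, that in polysome mRNA at an adjusted p of 0.12 (limma). Sdhaf1, which helps to insert the iron-sulfur clusters of complex II, was at 21.9, 17.4 and 17.4 ppm in polysomes of Torin1 cells and 26.4, 24.7 and 29.3 ppm in those of DMSO cells, a log2 fold of -0.49 ± 0.10 (limma, adjusted p = 0.0107), and that call was lost without polysome DMSO replicate 3 (0.0538). In total mRNA the log2 fold of Sdhaf1 was -0.42 ± 0.10, with an adjusted p of 0.0283 in limma. In total mRNA the call on Lrpprc was lost without each library but Torin1 replicate 2 (adjusted p between 0.0798 and 0.139), and that on Sdhaf1 without each but Torin1 replicate 3 (0.0658 to 0.0973). The other gene that fell in polysome mRNA was Cox19, a copper-handling assembly factor of complex IV, with -0.34 ± 0.07 (limma, adjusted p = 0.00917). Scaled to the column total only, neither Cox19 (-0.08, adjusted p = 0.596) nor Sdhaf1 (-0.24, adjusted p = 0.189) was called in polysome mRNA, nor was Lrpprc in total mRNA (adjusted p = 0.204). A fit of the polysome libraries alone gave adjusted p-values of 0.0963 for Cox19 and 0.0962 for Sdhaf1 in limma.

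Torin1 left the 6 mitochondrially encoded subunits of complexes III to V without a call in total mRNA, polysome mRNA or polysome association, each with 0 at an unadjusted p under 0.05. Their spread in polysomes was wide. mt-Co1, the catalytic subunit of complex IV, was at 4622, 6260 and 6925 ppm in polysomes of Torin1 cells and 7096, 3500 and 5001 ppm in those of DMSO cells, so the treatments overlapped. mt-Co2, for another core subunit of complex IV, was listed at 0 in 2 of the 3 polysome libraries of each treatment.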

How the data were processed

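Total and polysome mRNA of cortical neural progenitor cells were measured in 12 libraries, 4 groups of 3, grouped by the labels' titles. The deposited table holds a signal per gene and library, and no read counts; the scaling the authors applied is not stated by the labels or the file headers. Tools listed in the submitters' processing notes are HTSeq 0.6.0 and STAR 2.7.9a, with the build mm10; their roles are not given there. Nothing says whether replicates came from separate animals, so p-values measure the spread between these libraries. Each gene had 1 spread, shared by total and polysome libraries, although the polysome libraries spread more for some of the genes.

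The deposited signal was scaled to each column's total and then by a trimmed mean of log ratios without weights, with shares of 0.3 (ratios) and 0.05 (abundances) left out at either end. The filter kept 20240 of 53351 genes, those that reached a deposited value of 1 in 3 or more libraries. limma 3.58.1 in R 4.3.3 fitted log2(ppm + 1) with 4 group means over 12 libraries and a variance trend, and Benjamini-Hochberg adjustment was made per comparison (5 in all) with a threshold of 0.05. Such folds understate the change of genes at low values. Expressed genes have a mean log2 value of at least 3. Intervals are at 95%. The fit was tested on simulated data.

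The members and lists were chosen with earlier results of these data known. Genes named are, per comparison, up to 6 members with the largest called fold in each direction (the 2 largest folds where fewer than 2 were called), the member of each complex with the largest scaled value, and 2 genes per list; Atp5k, Uqcrb, Uqcrfs1 and Atp5g1 in total mRNA, Atp5g3, Nrf1, Gabpb1, Esrra, Cox19, mt-Atp8, mt-Cytb, mt-Co1, mt-Co2, Rn7sk and the genes named for a change under another scaling were chosen after their values were seen. Alternatives were scaling to the column total or by the median of ratios, a pseudocount of 0.1, other filters, fits of only the groups compared, a replicate block and each library left out. A planned description of protein length was not run, and mRNA length was not analysed here.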

Additional observations from a re-analysis of the deposited data

Results flagged for a closer look

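Of the genes named, 4 had a Torin1 effect that differed between polysome and total mRNA by limma's interaction term. Cox7a2l, the supercomplex factor gene, had a difference of -1.25 on the log2 scale (polysome fold minus total fold; adjusted p = 0.00143), and Atp5g2, a gene for subunit c of complex V, had -0.575 (adjusted p = 0.0136). Rps19 had -1.97 (adjusted p = 0.000737) and Rps27 -1.89 (adjusted p = 0.0048), both genes of the small ribosomal subunit. None of the 39 genes of complexes II to V was among them.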

How the results depend on the processing

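The counts of the 39 genes called higher in polysome than in total mRNA describe a list put together with that trait in mind. They stayed at 39 in Torin1 cells and 38 in DMSO cells without each library in turn. Scaled to the column total only, they were 36 and 35. The counts called in the change in polysome association stayed at 0 higher and 0 lower without each library in turn. With scaling to the column total alone, Torin1 against DMSO gave 1 gene lower in total mRNA and 5 higher and 0 lower in polysome mRNA, and polysome against total mRNA in DMSO cells gave 1 lower, with Atp5a1 at -0.049, Nrf1 at -0.27 and Gabpb1 at -0.083 on the log2 scale, each above 0 before; of all genes called, 21.8% were then higher in the change in polysome association against 0.787%, and 21.8% against 50.4% in polysome over total mRNA of DMSO cells. That scaling set the median of all genes to 0.13 in polysome mRNA, 0.21 in the change in polysome association and -0.17 in polysome over total mRNA of DMSO cells. Without a filter on low values 4 genes were lower in polysome mRNA, and a filter at a mean log2 value of 3 gave 1 lower in total mRNA. Fits of only the groups compared gave 2 higher and 8 lower in total mRNA, and 0 and 0 in polysome mRNA. These fits used the spread of 1 fraction, and the main fit that of both. With the replicate number as a block, Torin1 against DMSO gave 3 genes lower in total mRNA and 0 higher and 0 lower in polysome mRNA. That block also removed the polysome mRNA calls on Cox7a2l, Atp5g2, Lrpprc, Sdhaf1, Cox19, Ppargc1a, Pprc1, Esrra, Ndufb10, Ndufb7 and Rps27. Deviations of libraries with the same number correlated at -0.05 to 0.06 between total and polysome mRNA and -0.23 to 0.33 between Torin1 and DMSO. Of 6 libraries, 0, 3, 1 and 2 correlated best with their own number (total and polysome in DMSO, in Torin1, Torin1 and DMSO in total, in polysome mRNA). Whether libraries with the same number share a lysate is not stated, and these correlations cannot show that they do not. The main fit took no account of pairing. With single libraries left out, genes lower in polysome mRNA ran between 2 and 20 and genes higher between 1 and 2. The causes were not tested. Except where given above, shares of all genes called under these alternatives are not shown, so the counts may not be particular to the 39 genes. No other fold of the 39 genes or the other genes named changed sign with a call on either side. There were 3 libraries a group and the depth in reads is unknown. SEs of the 39 genes lay between 0.06 and 0.19 in comparisons of 2 groups. For the change in polysome association they lay between 0.08 and 0.27. Differences well above these SEs could still go uncalled. Pet100, for example, had a change in polysome association of -0.56 that was not called (limma, adjusted p = 0.615).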
